A study of Mus musculus with 6 samples.

Results

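The genes described here are those of the urea cycle and of ammonia handling in mouse liver: Cps1, Otc, Ass1, Asl, Arg1, Nags, Glul, Gls2, Got1 and Glud1. Every probe set that the platform annotation gives to exactly 1 of these 10 symbols was taken, which gave 13 probe sets for 9 genes out of 34945 probe sets with 1 symbol on the larger of the array designs used. Of the 13, 12 lay on both designs and 1, the only one of Ass1, on the larger design alone. No probe set was found for Gls2, the liver form of glutaminase, which was not analysed here. The livers came from C57BL/6J mice, an inbred strain, randomly assigned to a control diet or to a high-fat diet that the design text abbreviates as HFC, and were profiled at weeks 2, 4 and 10. Each diet and week has 1 array, 6 in all, so no group has a replicate within a week. The labels describe RNA isolated from each mouse, and leave unsaid if a single animal or several were hybridised per array, as well as the age, the sex, the fat content of the diets or the fasting state. The arrays of week 4 are of the larger design and were deposited in a table of their own, so diets were compared within a week and levels across time only between weeks 2 and 10.

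The urea cycle converts ammonia from amino acid breakdown into urea for excretion, and the complete cycle runs in hepatocytes, above all in those around the portal vein. Its first steps take place in mitochondria, where carbamoyl phosphate is made and joined to ornithine, and the remaining steps in the cytosol, where arginine is formed and split into urea and ornithine. Ammonia that escapes the cycle is taken up by a narrow rim of hepatocytes around the central vein, which join it to glutamate to form glutamine. Glutaminase, glutamate dehydrogenase and the aspartate aminotransferases supply the ammonia and the aspartate whose nitrogen atoms end up in urea.

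The promoter windows of 3 members are printed because these genes stood for the different patterns seen: Got1 read lower with the high-fat diet in weeks 4 and 10, Otc differed little between the diets at any week, and the probe sets of Glul did not share one pattern. The sequences are RefSeq's, on the build GRCm38.p6, each 250 bases long and ending at the base before the annotated start of the gene, printed in the gene's direction. Of the 10 genes, 6 were found in that table. Capitals mark matches to any of 6 motifs searched on both strands, none of which overlaps another motif in these 3 windows: the TATA box TATAAA, the CCAAT box CCAAT, the GC box GGGCGG, the cAMP response element core TGACG, the C/EBP core TTGCNNAA and the glucocorticoid response element core AGAACA.
Got1, chr19:43524606-43524855, minus strand: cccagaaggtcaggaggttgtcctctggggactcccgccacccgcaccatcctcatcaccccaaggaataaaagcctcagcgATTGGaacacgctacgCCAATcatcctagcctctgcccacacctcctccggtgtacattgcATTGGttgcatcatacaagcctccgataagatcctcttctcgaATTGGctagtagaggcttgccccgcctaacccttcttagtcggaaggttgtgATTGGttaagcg
Otc, chrX:10252055-10252304, plus strand: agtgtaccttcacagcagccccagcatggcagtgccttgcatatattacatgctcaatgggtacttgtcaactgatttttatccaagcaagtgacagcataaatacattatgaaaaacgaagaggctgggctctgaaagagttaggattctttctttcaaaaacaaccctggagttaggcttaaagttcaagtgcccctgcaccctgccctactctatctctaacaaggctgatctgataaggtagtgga
Glul, chr1:153899679-153899928, plus strand: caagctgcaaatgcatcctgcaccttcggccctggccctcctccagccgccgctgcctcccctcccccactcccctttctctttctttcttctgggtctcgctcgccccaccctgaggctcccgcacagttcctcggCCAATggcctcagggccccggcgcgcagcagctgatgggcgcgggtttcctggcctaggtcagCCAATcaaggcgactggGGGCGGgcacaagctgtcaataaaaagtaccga

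The Got1 window held 5 matches to CCAAT, 4 of them on the opposite strand, from 168 to 8 bases before the start, and no other match. The Glul window held 2 matches to CCAAT, beginning 113 and 50 bases before the start, and 1 to GGGCGG. None of the 6 motifs matched in the Otc window, which had a GC content of 43.6% against 64.8% for Glul, 54.4% for Got1 and a median of 52.4% over all promoters in the table. Of the 32851 windows of the same length, 33.8% held CCAAT, 32.7% GGGCGG, 17.8% TGACG, 16.1% AGAACA, 12.4% TATAAA and 9.56% TTGCNNAA. In the windows of Ass1, Nags and Glud1, which are not printed, GGGCGG was the only motif found, with 1, 2 and 3 matches. A match describes letters and not a bound site, and the absence of one concerns this window alone.

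Signal per probe set was used after each array was centred to a common median, and values under a floor of 155.3, the pooled 40th percentile, were set to it. Of shared probe sets 50.4% to 65.8% lay above the floor on single arrays. The 3'/5' signal ratio of pyruvate carboxylase, a sign of RNA quality, differed between high-fat and control by 1.33 and 0.87 (log2) in weeks 2 and 4 and by -0.74 in week 10, that of beta-actin by 0.42, 0.13 and -0.56, that of Gapdh by 0.37, -0.01 and -0.12, and that of transferrin receptor by 1.73, -0.26 and 0.89 in weeks 2, 4 and 10. As deposited, the signals of both spikes were lower on the high-fat array of each week, with bioD at 5004 and 3822, 13606 and 9363, and 21252 and 5891, control first, and cre at 34694 and 20202, 52275 and 33698, and 60895 and 37905. The week 2 pair of these uncentred values also carries the different scaling of its control array. The part of either in the results below was not tested. All 5 general hepatocyte markers on both designs were tested, while Krt7, Epcam and Adipoq, which mark bile duct and fat cells, lay at the floor on all arrays. Other markers of these cells were dim but above it on some arrays. For bile duct, Krt19 read 312.8 (control) and 205.6 (high-fat) in week 10, and Sox9 178.8 and 159.7 on the high-fat arrays of weeks 2 and 10. For fat cells, Retn read 232.5 on the control array of week 2, and 262.1 (control) and 168.4 (high-fat) in week 10. In whole liver, fewer cells of a type and less RNA per cell cannot be told apart.

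The first comparison asked whether any urea cycle or ammonia gene differed between the diets over the 3 weeks. None of the 11 member probe sets tested passed (limma with week as a block, Benjamini-Hochberg adjusted over 14533 probe sets, smallest adjusted p = 0.993), where 0.0138% of all probe sets passed. At an unadjusted p under 0.05 there were 2 of the 11 members, Asl and Arg1, and 586 of all 14533 probe sets tested. The remaining shared probe set, a dim one of Otc, was above the floor only at week 4 and was not tested. The largest mean log2 differences, high-fat minus control, were -0.95 for Asl (SE 0.36), -0.76 for Arg1 (SE 0.23) and -0.58 for Got1 (SE 0.29), each over 3 arrays per diet.

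Counted within weeks, the members stood mostly level at week 2 and mostly lower on the high-fat array later. At week 2, 4 of 11 member probe sets were lower and 7 higher. The number at least 1.5-fold lower was 0 of 11, against 10.5% of all probe sets above the floor, and 1 of 11 was at least 1.5-fold higher, against 7.28%. At week 4 all 11 tested were lower with centring alone, while the dim, untested Otc probe set was 0.14 higher. With that probe set counted, 5 of 12 were at least 1.5-fold lower against 8.84% of all. In the same week 0 of 12 were at least 1.5-fold higher against 5.61%. At week 10, 9 of 11 were lower, 5 of 11 by at least 1.5-fold against 13.6% of all, and 0 of 11 were at least 1.5-fold higher against 14.4%. The median log2 difference of the 11 was 0.07, -0.35 and -0.55 at weeks 2, 4 and 10, beside -0.04, 0.00 and 0.01 over all probe sets tested. Lower at all 3 weeks were 3 of 11, Arg1 and both probe sets of Glud1, against 11.7% of all, and 0 of 11 were higher at all 3 weeks against 8.24%. On the 4 arrays of weeks 2 and 10, both high-fat arrays lay below both control arrays for 2 of 11, Arg1 and the brighter Glud1 probe set, against 14% of all, and above them for 0 of 11 against 12.1%. With 1 array per diet none of these weekly counts has a replicate check.

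**Figure D1:**
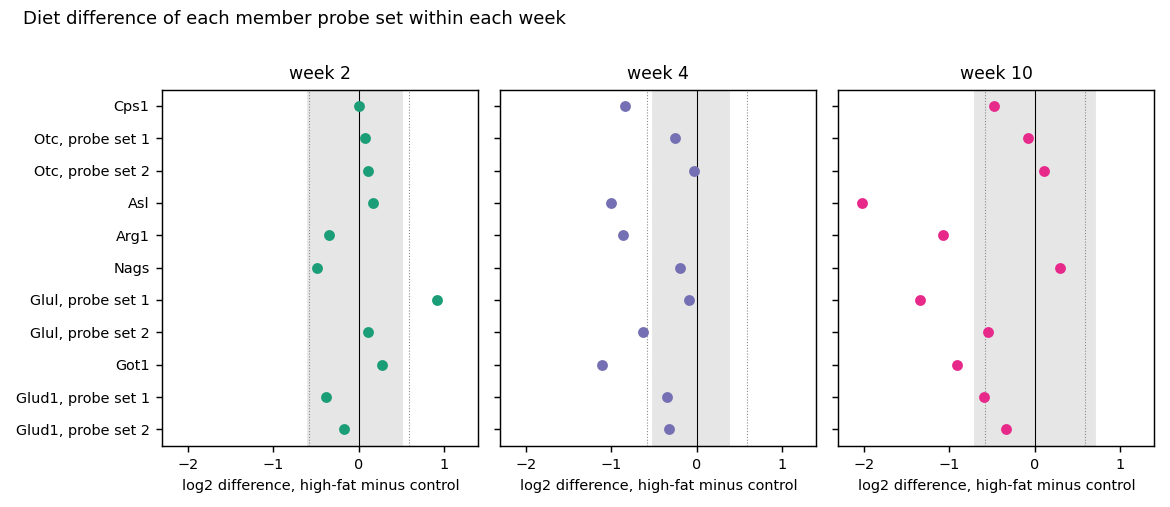
Log2 difference between the high-fat and the control array (x axis) at weeks 2, 4 and 10 for the 11 member probe sets tested, 1 array per diet and week. The grey band runs from the 10th to the 90th percentile of all 14533 probe sets tested, dotted lines mark 1.5-fold, and probe set 1 of a gene is its brighter one; Asl lies at -2.02 at week 10, and the brighter Glul probe set moves from 0.91 at week 2 to -1.34 at week 10.

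The mitochondrial entry to the cycle came next. Cps1 encodes carbamoyl phosphate synthetase, the rate-limiting enzyme, which uses ammonia directly. Week 2 gave a signal of 33843 (control) and 33938 (high-fat), week 4 gave 38194 and 21278, and week 10 gave 47636 and 34138. The diets were thus level at week 2, and the high-fat diet was 1.79-fold lower in week 4 and 1.4-fold lower in week 10 (mean log2 difference -0.44, SE 0.24, limma adjusted p = 0.993). Nags makes N-acetylglutamate, without which Cps1 is inactive. Its signal, control first, was 2126 and 1518 in week 2, 1408 and 1223 in week 4 and 1745 and 2142 in week 10, so that the high-fat array was the lower one at the first of these weeks and the higher one at the last, with a mean log2 difference of -0.13 (SE 0.24).

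Otc, ornithine transcarbamylase, forms citrulline from carbamoyl phosphate and ornithine. On its brightest probe set, 1420525_a_at, the signal, control first, was 9748 and 10260 in week 2, 14724 and 12348 in week 4 and 11135 and 10537 in week 10. On 1436615_a_at it was 3158 and 3420, 6626 and 6478, and 2913 and 3149. The diets stayed within 1.19-fold of each other on both probe sets at every week, with mean log2 differences of -0.09 (SE 0.22) and 0.06 (SE 0.21). The sign of both turned with the scaling: on 1420525_a_at it was 0.11 under quantile normalization and after correction for brightness, and on 1436615_a_at -0.12 in the values as deposited. The dim probe set 1425540_at was above the floor at week 4 alone, with 352.5 and 388.4.

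The next steps of the cycle are cytosolic. Ass1, argininosuccinate synthase, joins citrulline to aspartate. Its own probe set, on the larger design only, read 874.2 in week 4 with the control diet and 536.2 with the high-fat diet, 1.63-fold less. The annotation gives a further, much brighter probe set to both Ass1 and Gm5424, so its signal cannot be assigned to Ass1 and it was not counted among the members. That shared probe set read, control first, 28387 and 24326 in week 2, 22197 and 9989 in week 4 and 29435 and 16616 in week 10, so the high-fat array was the lower one each time (log2 differences -0.22, -1.15 and -0.83).

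Asl, argininosuccinate lyase, cleaves argininosuccinate to arginine and fumarate. Week 2 gave a signal of 15314 (control) and 17230 (high-fat), week 4 gave 16399 and 8135, and week 10 gave 16147 and 3985. The high-fat array was 1.13-fold higher, then 2.02-fold lower and then 4.05-fold lower. The weekly differences had an SD of 1.1 on the log2 scale, larger than their mean of -0.95 (limma adjusted p = 0.993). Without week 2 the mean was -1.51 with an adjusted p of 0.113, and without week 10 it was -0.42.

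Arg1, the liver arginase, releases urea and regenerates ornithine. Its signal, control first, was 30945 and 24277 in week 2, 37647 and 20730 in week 4 and 50214 and 23737 in week 10. The high-fat array was the lower one at each week, by 1.27-fold, 1.82-fold and 2.12-fold, and the mean log2 difference was -0.76 (SE 0.23, limma adjusted p = 0.993). On the control diet its signal was 0.7 higher at week 10 than at week 2 on the log2 scale, and on the high-fat diet it was -0.03.

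**Figure D2:**
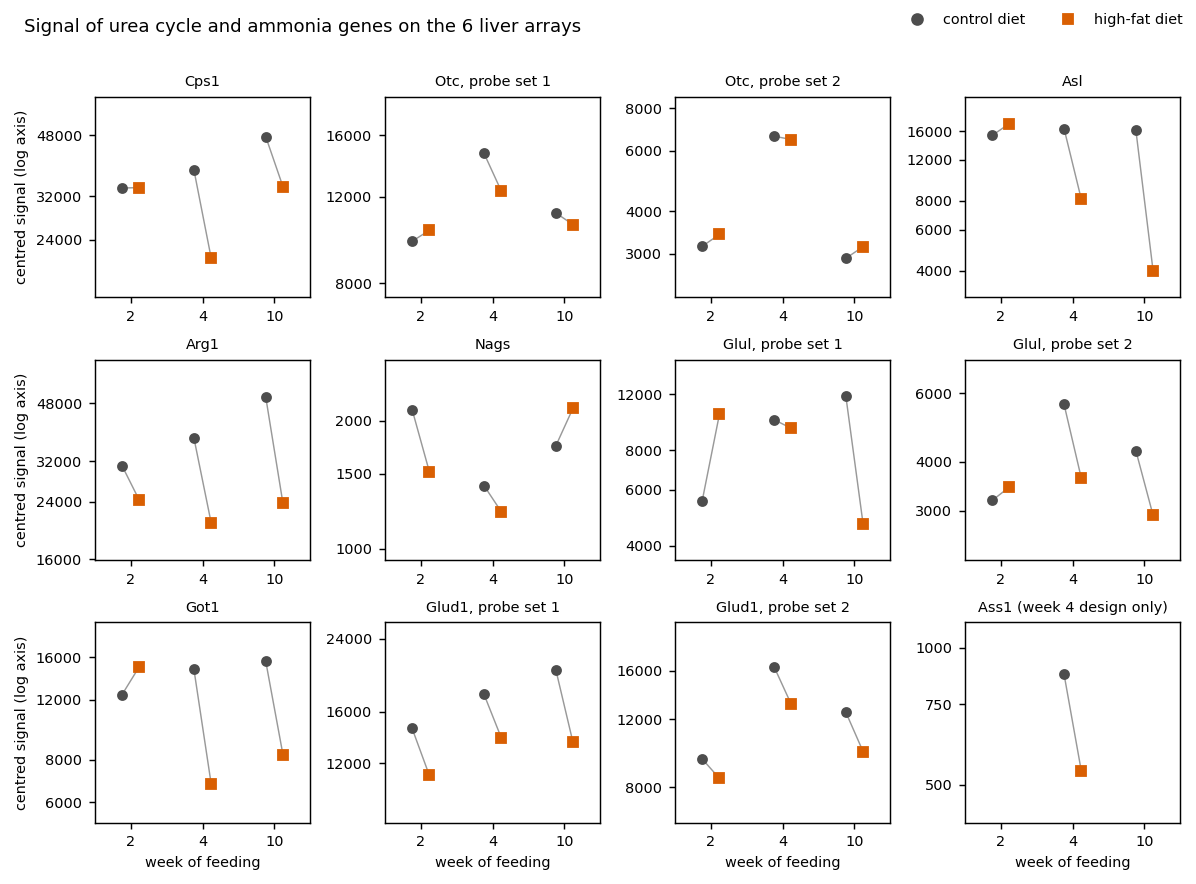
Centred signal (y axis, log scale, a range of its own in each panel) on the control and high-fat array of weeks 2, 4 and 10 (x axis) for the 11 member probe sets tested and for Ass1, which has week 4 only. Each point is 1 array and a line joins the arrays of a week; Arg1 is lower with the high-fat diet throughout, and Asl reads 16147 and 3985 at week 10.

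Glul encodes glutamine synthetase, the ammonia scavenger of the hepatocytes next to the central vein. On the brighter probe set, 1426236_a_at, week 2 gave a signal of 5533 (control) and 10365 (high-fat), week 4 gave 9982 and 9371, and week 10 gave 11849 and 4693. The high-fat diet thus stood 1.87-fold higher in week 2 and 2.52-fold lower in week 10, with a mean log2 difference of -0.17 (SE 0.36), which was 0.41 without week 10. On 1426235_a_at the signal was 3185 and 3448, 5614 and 3636, and 4271 and 2916, giving log2 differences of 0.11, -0.63 and -0.55. In week 10 the high-fat signal was the lower one on both probe sets, while the 1.87-fold difference of week 2 was seen on 1 of them only.

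Among the enzymes that feed nitrogen into the cycle, Got1, the cytosolic aspartate aminotransferase, had signals, control first, of 12417 and 14994 in week 2, 14742 and 6808 in week 4 and 15550 and 8276 in week 10. Like Asl it was somewhat higher with the high-fat diet in week 2 (1.21-fold) and lower later, by 2.17-fold at week 4 and 1.88-fold at week 10 (mean log2 difference -0.58, SE 0.29, limma adjusted p = 0.993). Without week 4 its mean difference was -0.32, and without week 2 -1.01. Glud1, the mitochondrial glutamate dehydrogenase, had signals of 14586 and 11233, 17646 and 13862, and 20233 and 13488 on 1416209_at, the brighter of its probe sets, and of 9472 and 8439, 16391 and 13106, and 12502 and 9897 on the other. In both the high-fat value was the lower one of each week. The mean log2 differences of -0.44 (SE 0.21) and -0.28 (SE 0.21) were small, and their weekly values spread little, with SDs of 0.13 and 0.09. At week 10 the brighter one, at -0.59, lay just past the 1.5-fold mark, and the dimmer Glul probe set, at -0.55, and Cps1, at -0.48, just short of it.

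The members are bright: 10 of the 11 member probe sets tested, all but that of Nags, were in the brightest 10% of those tested. Over these 1454 probe sets the median log2 difference at week 4 was -0.33, close to the -0.35 of the members, and 19.9% were at least 1.5-fold lower, beside 5 of the 10 members in it. At week 10 the median of these bright probe sets was -0.10 with 14.6% at least 1.5-fold lower, beside 5 of 10 members. After a loess correction of each week's differences for brightness, 2 of those members were at least 1.5-fold lower at week 4, Asl and Got1, against 2.34% of all 1454, and 4 at week 10, Asl, Arg1, Glul and Got1, against 11.1%. The median of the 11 was then 0.09, -0.20 and -0.42 at the 3 weeks, and the median of the members' mean differences was -0.13 in place of -0.35.

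**Figure D3:**
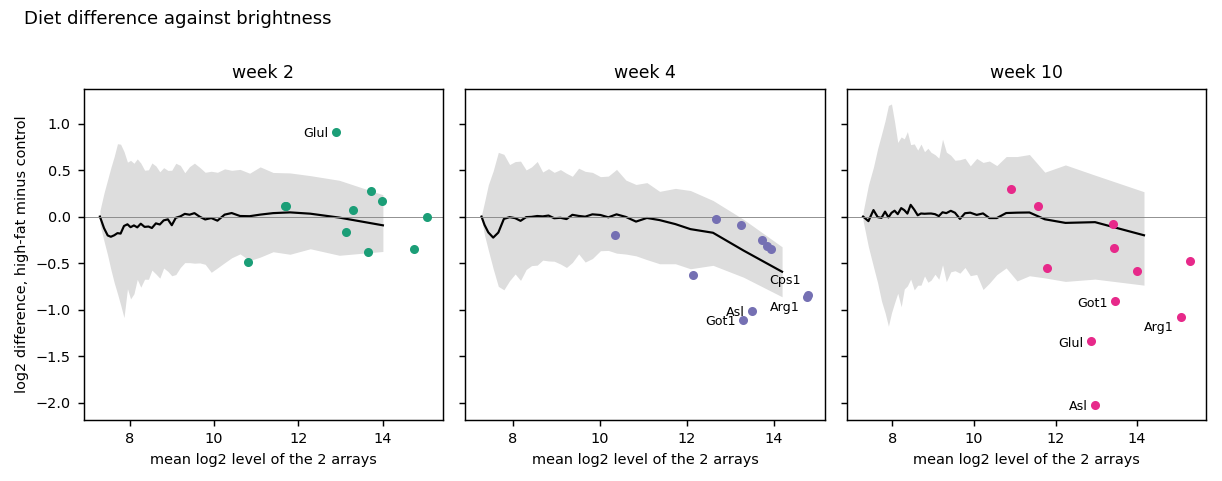
Log2 difference between the high-fat and the control array (y axis) against the mean log2 level of both arrays (x axis) at each week, with the 11 member probe sets as points. The black line is the median and the grey area the 10th to 90th percentile of all 14533 probe sets tested in 40 bins of equal size; at week 4 the line drops to -0.593 in the brightest bin.

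Gene by gene, the week 4 and week 10 differences were much smaller after these corrections for some members and little smaller for others. Cps1 had -0.84 and -0.48 at weeks 4 and 10 with centring alone, -0.21 and -0.23 after loess, and -0.10 and -0.09 under quantile normalization. Arg1 had -0.86 and -1.08, then -0.23 and -0.85, and -0.16 and -0.56. Both probe sets of Glud1 took the opposite sign in week 4, 0.13 and 0.14 after loess. So did both tested probe sets of Otc, with 0.18 and 0.22, and the brighter one of Glul, with 0.26. All of these were also higher with the high-fat diet in week 4 under quantile normalization. Asl kept -0.61 and -1.92 after loess and -0.67 and -1.80 under quantile normalization, and Got1 -0.75 and -0.78, and -0.80 and -0.69. The brighter Glul probe set at week 10 had -1.34, -1.25 and -1.16 in the same order, and 0.91, 0.92 and 0.96 at week 2. The values as deposited shift every week 2 difference by a median of -0.67, since the control array of week 2 was scaled to a mean of 800.3 and the others to 500 to 500.2.

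**Figure D4:**
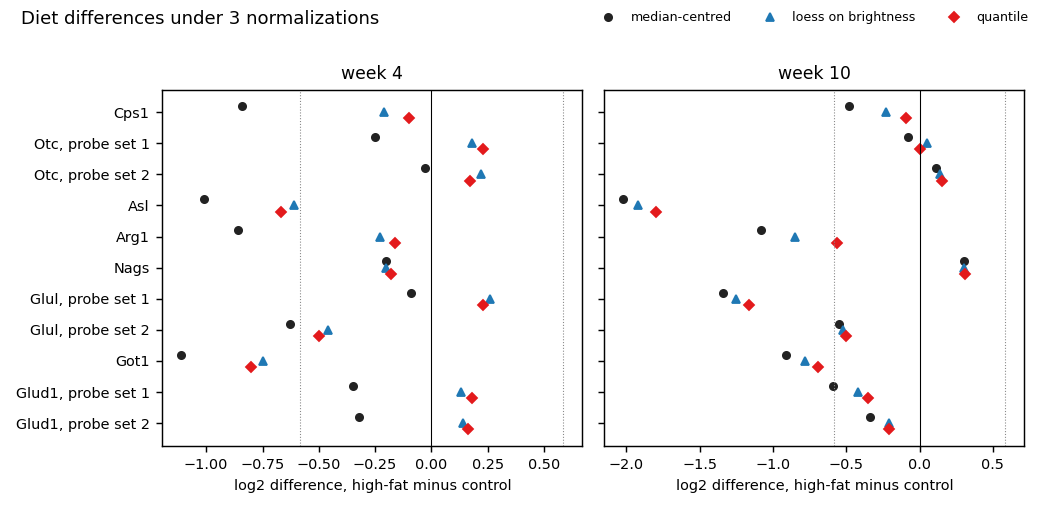
Log2 difference between the high-fat and the control array (x axis) at weeks 4 and 10 for the 11 member probe sets tested, after centring on the median, after loess on brightness and under quantile normalization, 1 array per diet and week. Dotted lines mark 1.5-fold; Asl and Got1 stay beyond the lower mark at both weeks under all 3, while Cps1 at week 4 goes from -0.84 to -0.10.

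Between weeks 2 and 10, which share a design and a table, levels could be set side by side within each diet. On the control diet the log2 level at week 10 minus that at week 2 was 0.49 for Cps1, 0.7 for Arg1, 0.47 and 0.4 for the Glud1 probe sets, 1.1 and 0.42 for those of Glul, 0.32 for Got1 and 0.08 for Asl. On the high-fat diet it was 0.01 for Cps1, -0.03 for Arg1, 0.26 and 0.23 for Glud1, -1.14 and -0.24 for Glul, -0.86 for Got1 and -2.11 for Asl. Nags had -0.28 for the control diet and 0.5 for high-fat. The brightest probe set of Otc had 0.19 and 0.04, and 1436615_a_at had -0.12 on both diets. Each is a difference of single arrays of different mice, and was not tested. The loess correction for brightness acts within a week, so these differences between weeks rest on centring alone. Over the same arrays the summed signal of the 5 general hepatocyte markers, also bright, was higher at week 10 than at week 2. It was 355424 against 209824 on the control diet and 271625 against 178445 on the high-fat diet.

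Other genes of nitrogen metabolism were taken from a list of 45, of which 41 had a probe set of their own on both designs and 38 were tested on the brightest. None of the 38 passed in either direction, and 3 had an unadjusted p under 0.05 (limma), beside 586 of all 14533 probe sets tested. At least 1.5-fold higher were 5 at week 2, 0 at week 4 and 2 at week 10, and at least 1.5-fold lower 1, 10 and 8. The shares of all probe sets above the floor were 7.28%, 5.61% and 14.4% higher and 10.5%, 8.84% and 13.6% lower. Among the brightest 10% of those tested, 3.78%, 19.9% and 14.6% were lower by this measure. The 38 had medians of 0.12, -0.30 and -0.16, and of 0.14, -0.06 and -0.16 after loess. Oat, ornithine aminotransferase, differed by 0.45, -0.78 and -1.24 (log2) in weeks 2, 4 and 10, and Prodh, proline dehydrogenase, chosen after its values were seen, 0.56, -1.05 and -0.70. In both, as in Asl and Got1, the high-fat value was above the control in week 2 and below it in weeks 4 and 10. Slc25a22, a mitochondrial glutamate carrier, had -0.34, -0.28 and -1.12, Slc1a2, a glutamate transporter of central-vein hepatocytes, -0.17, -0.82 and -0.57, and the amino acid transporter Slc38a2 -0.17, -0.71 and -0.41. Tat, tyrosine aminotransferase, was lower at each week with -0.59, -0.94 and -0.58.

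Of the genes that serve the cycle, some stood mostly on the other side and some were mixed. Car5a, the mitochondrial carbonic anhydrase that supplies bicarbonate to Cps1, had 0.63, -0.05 and 1.04, its signal, control first, being 585.5 and 904.2 in week 2, 1521 and 1466 in week 4 and 451.4 and 926.8 in week 10. Cebpa, a transcription factor needed for the expression of urea cycle enzymes, had 0.64, 0.14 and 0.58, and Pcx, pyruvate carboxylase, 0.77, 0.28 and 0.42. The 3'/5' ratio of Pcx itself differed by 1.33, 0.87 and -0.74, and its part in these values was not tested. Other regulators on the list, added after their values were seen, did not all stand higher. Cebpb had 0.31, 0.16 and -0.88, Hnf4a 0.07, -0.13 and -0.32, Nr3c1 -0.00, 0.19 and 0.53, and Ppargc1a 0.40, 0.09 and 0.18. The carriers Slc25a15 for ornithine and Slc25a13 for aspartate, chosen after their values were seen, were mixed. They had 0.54, -0.31 and -0.73, and 0.17, -0.15 and 0.46. With centring alone Slc25a15 was thus lower with the high-fat diet at weeks 4 and 10, as Asl and Got1 were. After loess it had 0.04 at week 4 and -0.65 at week 10, while Asl and Got1 had -0.61 and -0.75 at week 4.

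**Figure D5:**
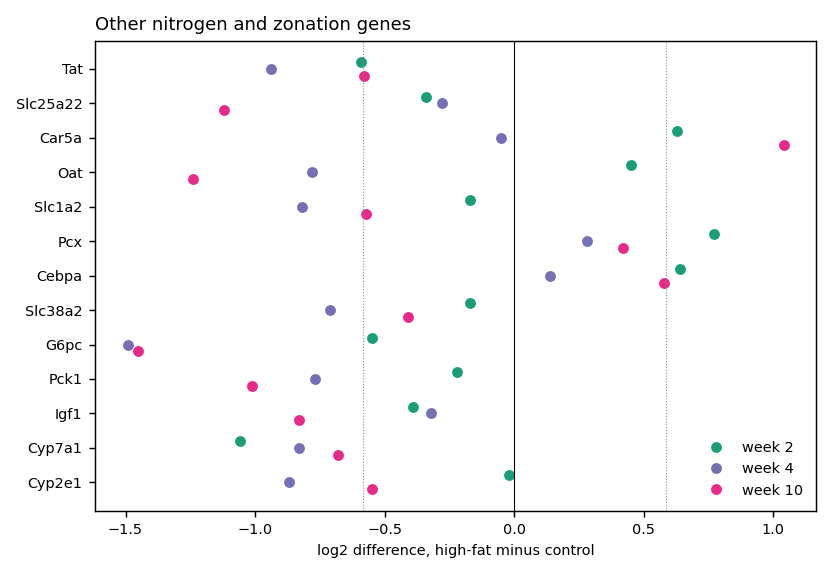
Log2 difference between the high-fat and the control array (x axis) at weeks 2, 4 and 10 for the 8 other nitrogen genes and the zonation genes named by the rule, brightest probe set, 1 array per diet and week. Dotted lines mark 1.5-fold; Pcx and Cebpa lie on the higher side at each week, Car5a at weeks 2 and 10 but at -0.05 at week 4, and G6pc and Tat on the lower side, with G6pc at -1.49 at week 4.

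Since urea synthesis and glutamine synthesis lie at opposite ends of the liver lobule, markers of these zones were set beside them, with the members left out. The 11 periportal genes had medians of -0.38, -0.55 and -0.58, with 1, 5 and 5 of them at least 1.5-fold lower at weeks 2, 4 and 10 and 1, 0 and 0 higher. The 16 pericentral genes had medians of -0.16, -0.47 and -0.33, with 3, 6 and 4 lower and 2, 1 and 1 higher. Over all probe sets above the floor the shares were 10.5%, 8.84% and 13.6% lower and 7.28%, 5.61% and 14.4% higher. Over the brightest 10% of those tested they were 3.78%, 19.9% and 14.6% lower. None of either list passed the test (limma). Named by the rule were G6pc, glucose-6-phosphatase, with -0.55, -1.49 and -1.45, Pck1, of gluconeogenesis, with -0.22, -0.77 and -1.01, and Igf1 with -0.39, -0.32 and -0.83 on the periportal side, beside Tat. On the pericentral side they were Cyp7a1, of bile acid synthesis, with -1.06, -0.83 and -0.68, and Cyp2e1, a cytochrome P450, with -0.02, -0.87 and -0.55, beside Oat and Slc1a2. Members of both lists went either way: Gstm3, a pericentral glutathione transferase, had -1.18, 1.07 and 1.39, and Cdh1, the periportal cadherin, 0.61, 0.55 and -0.68, both chosen after their values were seen. The difference between the lists was not tested. After loess the medians were -0.32, -0.26 and -0.38 for the periportal and -0.13, -0.20 and -0.18 for the pericentral list. In week 4 the named periportal genes then had -1.06 for G6pc, -0.42 for Tat, -0.30 for Pck1 and 0.10 for Igf1. The named pericentral ones had -0.65 for Cyp7a1, -0.34 for Oat, -0.82 for Slc1a2 and -0.21 for Cyp2e1.

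Markers of hepatocytes in general and of other cells were measured beside the members. All 5 general hepatocyte markers on both designs were lower by 1.5-fold or more with the high-fat diet in week 4 (median -0.80). The share was 8.84% of all probe sets above the floor and 19.9% of the brightest 10%. After loess the 5 had a week 4 median of -0.15, from -0.34 for Alb to -0.06 for Fgb, all short of 1.5-fold. At weeks 2 and 10 the medians of these markers were -0.23 and -0.42 (-0.15 and -0.16 after loess). Their summed signal was 209824, 231994 and 355424 on the control arrays of weeks 2, 4 and 10 and 178445, 127862 and 271625 on the high-fat arrays. Of 10 Kupffer cell and macrophage markers, 3 were at least 1.5-fold lower in week 2 (10.5% of all probe sets) and 7 at least 1.5-fold higher in week 10 (14.4% of all), with a summed week 10 signal of 22116 (high-fat) against 12981 (control), beside 17267 against 19488 at week 2 and 27636 against 26421 at week 4. Of 7 endothelial markers, 3 were at least 1.5-fold lower in week 2, and in week 10 there were 3 higher and 1 lower, with sums of 8215 (high-fat) and 5088 (control). Of 8 stellate and fibroblast markers 2 were at least 1.5-fold higher in week 10 and 0 lower, with sums of 11404 and 7991. The lymphocyte sum was 1439, 2976 and 2335 on the high-fat arrays and 1264, 1403 and 1947 on the control arrays of the 3 weeks, and 0 of 4 bile duct markers were above the floor on at least 3 arrays. The part of these cells in the lower signals of weeks 4 and 10 was not tested.

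The genes whose level over the 6 arrays was most like that of Cps1, among 6051 genes above the floor throughout, were Atp5g3 (Pearson's r = 0.992), Hpd (0.988) and Apoc3 (0.976). For the brighter probe set of Glul they were Tnks2 (0.981), Numa1 (0.967) and Ewsr1 (0.958). Numa1 had log2 differences of 0.88, -0.23 and -1.41, beside 0.91, -0.09 and -1.34 for Glul, and Hpd had -0.01, -0.91 and -0.53, beside 0.00, -0.84 and -0.48 for Cps1. These correlations are over 6 arrays that differ in design, week and scaling at once, and describe these arrays only. Since the genes were picked by them, the likeness of the weekly differences is no separate finding.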

How the data were processed

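Total RNA from liver was labelled as biotinylated cRNA and hybridised to Affymetrix mouse arrays, per the labels' protocols. The deposited values are linear intensity per probe set, scaled per array by the authors as the trimmed means show (mean after trimming 2% at each end 500 to 500.2, and 800.3 on the control array of week 2), while the summary method was not stated in the labels. Starting from these, 22626 shared probe sets were put on the log2 scale, arrays were centred on the median of the probe sets above the floor throughout, and values under the floor were set to it. Probe sets above the floor on at least 3 of 6 arrays were tested with limma 3.58.1 in R 4.3.3 (lmFit, eBayes) with diet and week as terms, adjusted by Benjamini-Hochberg at 0.05. The week term pairs the arrays of a week, so p-values set the mean diet difference against its spread between weeks. That spread is not each probe set's own, since eBayes draws it towards a value common to all probe sets tested. Weekly SDs of 1.1 for Asl and 0.09 for the dimmer Glud1 probe set thus stand beside SEs of 0.36 and 0.21. The number of arrays limits the precision. Symbols follow the platform annotation, updated through gene identifiers. The fit was also run on simulated data with independent noise, which held no brightness trend and no RNA quality difference between arrays. That run cannot show how the fit handles either of these.

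The members and lists were chosen with earlier results of these data known. All members were named, with all probe sets. The rule also names up to 8 genes of the nitrogen list and 4 of each zonation list, by size of the mean difference, and the 3 genes most correlated with Cps1 and with Glul. Alternatives tried were quantile normalization, a loess correction for brightness, the uncentred deposited values, a floor at the 20th or at the 60th percentile, no filter, no week block, eBayes with trend and robust, the brightest or the mean probe set per gene, and leaving out each week. Quantile normalization was run on the shared probe sets, so it gives no value for Ass1. Figures were drawn with matplotlib 3.10.9.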

Additional observations from a re-analysis of the deposited data

Results flagged for a closer look

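The brighter Glul probe set, 1426236_a_at, lay beyond 1.5-fold on opposite sides in 2 of the weeks. High-fat minus control was 0.91 on the log2 scale at week 2 and -1.34 at week 10. The dimmer probe set had 0.11 and -0.55. Each week has 1 array per diet, and the difference between the weeks was not tested.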

How the results depend on the processing

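The number of member probe sets called over the 3 weeks was 0 in limma under all 13 alternatives, with smallest adjusted p from 0.113 (without week 2) to 1. The median difference of the members was lower on the high-fat arrays throughout, from -0.13 with loess on brightness and with quantile normalization to -0.59 without week 2. With the values as deposited, 6 member probe sets were at least 1.5-fold lower and 0 higher at week 2. At least 1.5-fold lower at week 4 were 2 under quantile normalization and 2 after loess, and at week 10 3 under quantile normalization. The mean difference of Otc turned to 0.11 on 1420525_a_at under quantile normalization and after loess, and to -0.12 on 1436615_a_at in the values as deposited. That of Nags ran from -0.34 to 0.05 when 1 week was left out. That of the brighter Glul probe set ran from -0.71 to 0.41 when 1 week was left out, and was 0.01 under quantile normalization. The cause was not tested. Of the other values, 48 of comparisons kept their direction or call, or a count within 1.5-fold of the main one. For single probe sets 82 kept their sign and call, whatever the size. Cps1, at -0.44 in the main setting and -0.02 under quantile normalization, is among these. Over all probe sets limma called 2, against 10 in the values as deposited, 9 without week 2, 6 without week 10, 3 with the mean of the probe sets per gene, 1 with the brightest per gene, 1 with trend and robust, and 0 under the other 7. The week block stands in for a paired design. With 1 array per diet and week, no weekly value has a replicate check.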
